A study of Macaca mulatta with 6 samples.

Results

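The genes described here make, degrade and sense the cyclic nucleotides cAMP and cGMP. Their RNA was measured in rhesus monkey cultures that the study describes as spermatogonial stem cells (SSCs). The genes were chosen by a rule on gene symbols, with earlier results of these data known. The rule took the adenylyl cyclases (ADCY), the phosphodiesterases (PDE) and the regulatory and catalytic subunits of protein kinase A (PRKAR, PRKACA and PRKACB). It also took the factors CREB1, CREM and CREB5, the exchange factors RAPGEF3 and RAPGEF4, and the cGMP-dependent kinases PRKG1 and PRKG2. The rule found 45 of the 17795 genes in the count table, and 37 of them had enough reads to be tested, among 11539 tested genes in all.

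Bulk RNA sequencing compared cultures given platelet-derived growth factor (SSC PDGF+, 3 libraries, labelled PDGF) with PDGF-free controls (SSC PDGF-, 3 libraries, labelled PDGFNO). The comparison asked what PDGF changes in these cultures. The cells were isolated from rhesus monkey testis and grown in hydrogel droplets, and the medium described for these cultures also holds serum, GDNF, EGF, LIF, bFGF, Wnt3a and melatonin. Age, donor, days in culture and whether the replicates are separate cultures are not given for these libraries, so the p-values measure the spread between these libraries, which may be technical. Replicate 1 of each group was batch 1 by the labels and replicates 2 and 3 were batch 2, and total counts ranged from 10593805 to 14102697 per library.

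Adenylyl cyclases make cAMP from ATP, most of them at the plasma membrane under the control of G protein-coupled receptors, and phosphodiesterases break cAMP and cGMP down. cAMP releases the catalytic subunits of protein kinase A (PKA) from its regulatory subunits, and the free kinase phosphorylates many proteins, among them CREB-family factors that bind the cAMP response element (CRE) in promoters. In the testis, cAMP carries the signal of the gonadotropins in somatic cells, and soluble adenylyl cyclase and PKA drive sperm motility and capacitation.

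The labels name testis and the study describes SSCs, and 5 of the 12 counted spermatogonial markers had enough reads to be tested. NANOS2 and STRA8 had 0 counts in all 6 libraries, and GFRA1, a receptor component of spermatogonial stem cells, had 5 counts over SSC PDGF+ and 18 over SSC PDGF-. ID4 and FGFR3 were well detected, at means of 131 and 13.7 CPM (read counts scaled to library size) in SSC PDGF+ and 163 and 57.8 CPM in SSC PDGF-, and DDX4 was at 0.305 and 2.13 CPM. The spermatogonial markers summed to 136 to 152 CPM in SSC PDGF+ and 180 to 265 CPM in SSC PDGF-, with 3 of the 5 tested lower by edgeR. Most of each sum came from ID4 and FGFR3, while DAZL was at 0.21 and 1.13 CPM and SALL4 had 1 count against 20. For comparison with the marker counts in this paragraph, 10.7% of all tested genes were lower and 7.61% higher by edgeR. Markers of stromal fibroblasts summed to 20600 to 25600 CPM in SSC PDGF+ and 23000 to 24000 CPM in SSC PDGF-, with 2 of the 8 tested lower and 0 higher by edgeR. Other marker lists also differed between the groups. Spermatid markers summed to 118 to 162 CPM in SSC PDGF+ and 649 to 962 CPM in SSC PDGF-, with 7 of the 8 tested lower in SSC PDGF+ by edgeR. Peritubular myoid and smooth muscle markers summed to 671 to 744 CPM against 1220 to 1350 CPM, with 3 of 8 lower, and pericyte markers to 293 to 440 CPM against 166 to 259 CPM, with 2 of 5 higher. The names SSC PDGF+ and SSC PDGF- follow the study, and these marker values do not show that most of the RNA came from SSCs. Fewer cells of a type and less RNA per cell cannot be told apart in such bulk libraries, and the part of these shifts in the results that follow was not tested.

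The promoters of 4 of the 45 genes (8.89%) held the full palindromic CRE, TGACGTCA, between 250 bases before and 50 after the annotated gene start, against 2.35% of 14913 promoters of protein-coding genes in the table. Windows of 120 bases are shown for a gene that passed the test, PDE7B, and for the most abundant PKA catalytic subunit and PDE4 gene, with every match to the core CGTCA on either strand in capitals, the full element included.
PDE4A: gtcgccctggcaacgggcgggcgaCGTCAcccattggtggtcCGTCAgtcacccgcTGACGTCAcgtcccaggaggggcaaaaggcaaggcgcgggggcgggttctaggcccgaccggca
PDE7B: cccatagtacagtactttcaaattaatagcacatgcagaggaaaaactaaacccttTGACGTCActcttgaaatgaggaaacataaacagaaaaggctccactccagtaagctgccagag
PRKACA: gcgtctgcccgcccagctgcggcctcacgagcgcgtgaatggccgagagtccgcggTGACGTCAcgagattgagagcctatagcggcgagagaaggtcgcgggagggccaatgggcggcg
The sequences are from the RefSeq annotation of Mmul_10 and read 5′ to 3′ along the gene's strand. They lie at chr19:10177634-10177753 on the plus strand for PDE4A, chr4:39486867-39486986 on the plus strand for PDE7B and chr19:13721020-13721139 on the minus strand for PRKACA. Each full element also counts as a match to the core on both strands, and the core alone was in 31.1% of the members' promoters and 25.9% of all promoters. A match describes these letters in the reference, not binding in these cells, and only the outermost annotated start of each gene was searched. ADCY8 was the other gene with a full element.

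By edgeR with Benjamini-Hochberg adjustment, 10 of the 37 tested genes (27%) passed an adjusted p of 0.05, of which 4 were higher and 6 lower in SSC PDGF+. Of all tested genes 18.3% passed, 7.61% higher and 10.7% lower. The higher genes were ADCY4, PDE3A, PDE7B and PDE12, and the lower genes were ADCY1, ADCY5, PDE1A, PDE4D, PDE7A and PDE9A. With the replicate number as a block, which pairs libraries of one batch, 15 genes were higher and 13 lower, together 75.7% of the tested genes against 60.1% of all genes (31.1% higher, 29% lower). In CPM, the groups did not overlap in 22 of the 37 genes, 13 higher and 9 lower, against 37.6% of all tested genes. The median log2 fold change (SSC PDGF+ over SSC PDGF-) was 0.28 over the 37 genes and 0.02 over all tested genes. CPM values here are scaled by TMM, edgeR's normalization for library composition.

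**Figure D1:**
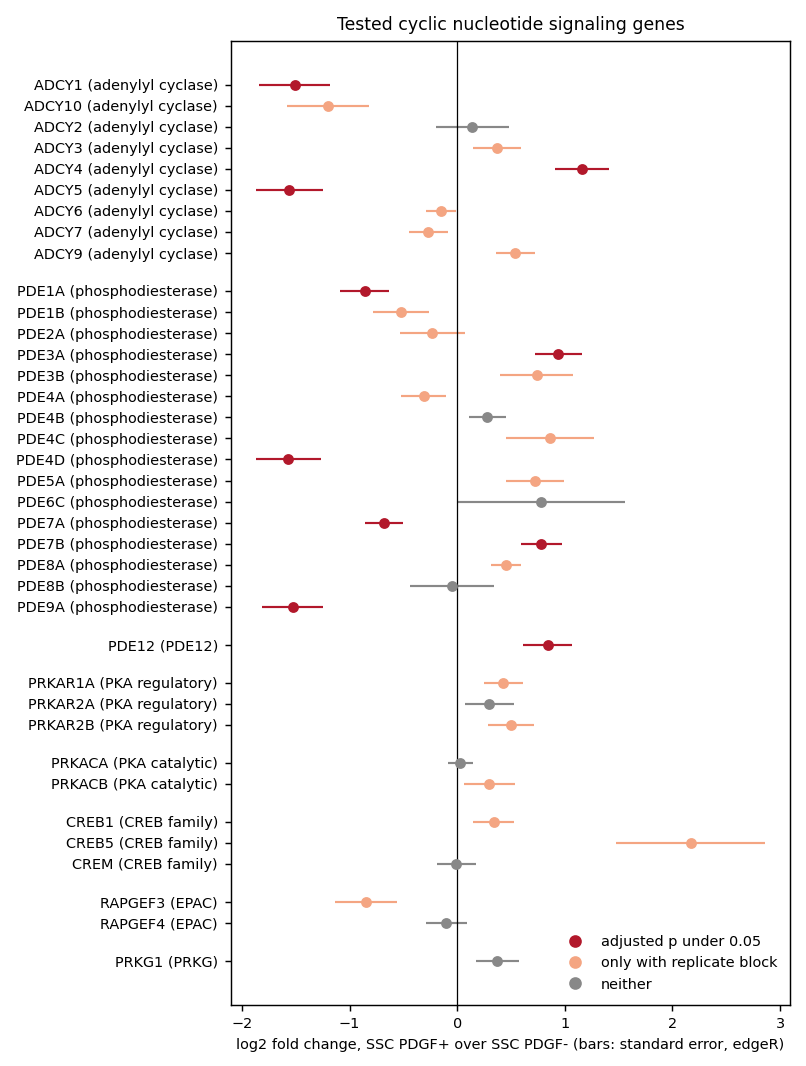
Log2 fold change of SSC PDGF+ over SSC PDGF- with its standard error for the 37 tested genes, grouped by role and colored by whether they passed an adjusted p of 0.05 in edgeR without a block, only with the replicate block, or in neither. The genes past the threshold run from -1.57 for PDE4D to 1.16 for ADCY4, and no PKA subunit, CREB factor or EPAC gene is among them without the block.

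Among the adenylyl cyclases, 1 of the 9 tested genes was higher and 2 were lower, together 33.3% against 18.3% of all tested genes. ADCY5, a cyclase inhibited by calcium, had 2.30, 5.24 and 4.21 CPM in the SSC PDGF+ libraries and 9.94, 12.8 and 11.7 CPM in the SSC PDGF- libraries. Every SSC PDGF+ library lay below every control, and the log2 fold change was -1.56 (SE 0.31, edgeR adjusted p = 0.012). ADCY1, which is stimulated by calcium and calmodulin, had 1.69, 2.35 and 2.40 CPM against 3.94, 6.80 and 7.64 CPM. The groups again did not overlap, with a log2 fold change of -1.51 (SE 0.33, edgeR adjusted p = 0.017). ADCY4 moved the other way, with 8.84, 12.5 and 12.7 CPM against 4.60, 4.31 and 6.37 CPM. Its log2 fold change was 1.16 (SE 0.25, edgeR adjusted p = 0.016) and the groups did not overlap. ADCY4 had the same count as RIPK3 in all 6 libraries, so these reads cannot be assigned to ADCY4 alone.

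The call of ADCY5 held without any one library. ADCY1 no longer passed without SSC PDGF+ replicate 2 or 3 (adjusted p = 0.056 and 0.052) and without SSC PDGF- replicate 2 or 3 (adjusted p = 0.064 and 0.07). ADCY4 lost it without SSC PDGF+ replicate 2 or 3 (adjusted p = 0.065 and 0.064) and without SSC PDGF- replicate 2 (adjusted p = 0.066).

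The most abundant cyclase was ADCY6, the close relative of ADCY5, with a level of 21.0 CPM per kb of exon in SSC PDGF+ against 23.3 CPM per kb in SSC PDGF-. It had 117, 146 and 145 CPM in SSC PDGF+ and 152, 151 and 151 CPM in SSC PDGF-. SSC PDGF+ replicates 2 and 3 lay just below the controls and replicate 1 lay further off, and the log2 fold change was -0.15 (edgeR adjusted p = 0.48, 0.033 with the block). Of the summed cyclase level per kb, ADCY6 held 49.8% ± 1.18 with PDGF and 55.8% ± 3.74 without (SD, n = 3 each), so the genes past the threshold were minor components by RNA. ADCY4 held 6.98% ± 0.375 and 3.16% ± 0.566 (SD, n = 3 each). The summed level of all 10 cyclases was 262 ± 36.4 CPM in SSC PDGF+ and 267 ± 15 CPM in SSC PDGF- (SD, n = 3 each), a difference smaller than the spread within the groups.

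Of the other cyclases, ADCY9, ADCY3, ADCY10 and ADCY7 passed in edgeR only with the block. ADCY9 had 30.4, 41.1 and 39.4 CPM against 22.6, 27.2 and 26.4 CPM, without overlap (log2 fold change 0.54, edgeR adjusted p = 0.069, 8.2e-05 with the block). DESeq2 called ADCY9 without a block (adjusted p = 0.042). ADCY3, a cyclase best known from olfactory neurons, had a log2 fold change of 0.37 with overlapping groups (edgeR adjusted p = 0.28, 0.0014 with the block). On the opposite strand, 1228 bp of its exons overlap CENPO, and whether the counting used strand is not stated. ADCY10, the soluble, bicarbonate-stimulated cyclase of sperm, had 1.89, 1.25 and 1.13 CPM against 2.22, 4.41 and 3.33 CPM. Its groups did not overlap, but its log2 difference was -0.23 in batch 1 and -1.66 in batch 2 (overall -1.20, edgeR adjusted p = 0.065, 0.017 with the block). The spermatid markers that fell alongside are given above, and their part in the ADCY10 values was not tested. For ADCY7 the log2 fold change was -0.27, with an edgeR adjusted p of 0.33 (0.038 with the block, but 0.067 with batch as a term and 0.071 with replicates 2 and 3 summed and batch as a term), and for ADCY2 it was 0.14 (adjusted p = 0.81).

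**Figure D2:**
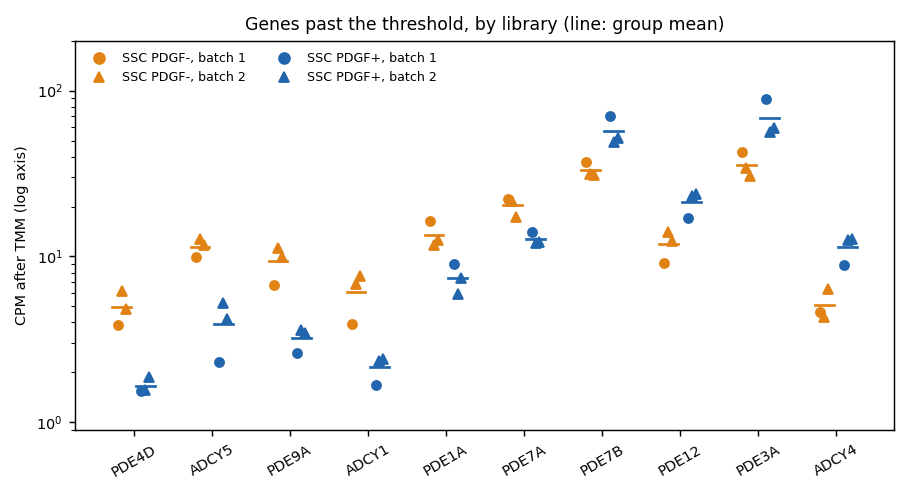
CPM after TMM on a log axis for the 10 genes past an adjusted p of 0.05, by library, with circles for batch 1, triangles for batch 2 and a line at each group mean. The groups do not overlap in any of the 10 genes, from PDE4D (1.55 to 1.88 CPM in SSC PDGF+, 3.86 to 6.23 CPM in SSC PDGF-) to ADCY4 (8.84 to 12.7 CPM against 4.31 to 6.37 CPM).

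Of the 22 phosphodiesterases that act on cyclic nucleotides, 16 were tested, and 2 were higher and 4 lower in SSC PDGF+. Together 37.5% of those tested passed, against 18.3% of all tested genes. The higher genes were more abundant than the lower ones. PDE3A, a cAMP phosphodiesterase inhibited by cGMP, had 89.5, 56.4 and 59.4 CPM in SSC PDGF+ and 42.5, 34.1 and 30.6 CPM in SSC PDGF-. The groups did not overlap, although batch 1 was the highest in both, and the log2 fold change was 0.94 (SE 0.22, edgeR adjusted p = 0.023). PDE7B, a cAMP-specific enzyme, had 70.3, 49.3 and 51.9 CPM against 37.3, 31.5 and 31.1 CPM. It showed the same order of libraries, again without overlap, with a log2 fold change of 0.78 (SE 0.19, edgeR adjusted p = 0.023). PDE7B is the gene with a full CRE shown above, and PDE4A and PRKACA, which have one too, did not pass the test.

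The lower phosphodiesterases came from the PDE9, PDE4, PDE1 and PDE7 families. PDE9A, which degrades cGMP with high affinity, had 2.63, 3.60 and 3.46 CPM in SSC PDGF+ and 6.73, 11.3 and 9.99 CPM in SSC PDGF-. It had the smallest adjusted p of the 37 genes, with a log2 fold change of -1.53 (SE 0.28, edgeR adjusted p = 0.0076). PDE4D, a cAMP-specific enzyme of the family inhibited by rolipram, had 1.55, 1.56 and 1.88 CPM against 3.86, 6.23 and 4.80 CPM. Its log2 fold change of -1.57 (SE 0.30, edgeR adjusted p = 0.010) was the lowest of the 37 genes. PDE1A, activated by calcium and calmodulin, had 8.98, 5.94 and 7.44 CPM against 16.3, 11.7 and 12.5 CPM. PDE7A, the paralog of PDE7B, had 14.0, 12.0 and 12.3 CPM against 22.3, 21.6 and 17.4 CPM. For both, each SSC PDGF+ library lay below each control, with log2 fold changes of -0.86 (SE 0.23, edgeR adjusted p = 0.038) and -0.68 (SE 0.18, edgeR adjusted p = 0.034).

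PDE9A and PDE4D kept their calls without any one library. PDE3A no longer passed without SSC PDGF- replicate 2 or 3 (adjusted p = 0.091 and 0.096), and PDE7B without these (adjusted p = 0.093 for each) or SSC PDGF+ replicate 3 (adjusted p = 0.053). PDE1A kept its call only without SSC PDGF+ replicate 1 and had an adjusted p of 0.066 to 0.14 without any of the others. PDE7A likewise passed only without that library and had an adjusted p of 0.051 to 0.13 without any of the others.

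The paralogs PDE7A and PDE7B moved in opposite directions, so that the makeup of the PDE7 family differed between the groups. Per kb of exon, PDE7B held 76.7, 73.0 and 73.5% of the PDE7 level with PDGF, against 52.4, 49.0 and 53.9% without. The lowest SSC PDGF+ library was above the highest control by more than the spread within either group (74.4% ± 2.01 against 51.8% ± 2.52, SD, n = 3 each), and no test was run on this share. The PDE7 family as a whole held 12.1% ± 2.17 and 10.8% ± 2.09 of the summed phosphodiesterase level (SD, n = 3 each). Within the PDE4 family, PDE4A held 83.8% ± 2.73 and 89% ± 1.47, and PDE4D 0.374% ± 0.0436 and 0.95% ± 0.101 (SD, n = 3 each).

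By family, PDE8, PDE4 and PDE2 held most of the phosphodiesterase level per kb. PDE8, made of high-affinity cAMP enzymes, held 32.2% ± 3.99 in SSC PDGF+ and 25.2% ± 4.22 in SSC PDGF- (SD, n = 3 each), and lay higher in SSC PDGF+ within each batch. The cGMP enzyme PDE9 held 1.36% ± 0.215 against 4.09% ± 0.689, and PDE3 9.19% ± 2.33 against 5.23% ± 1.59 (SD, n = 3 each). The sum over all phosphodiesterases was 567 ± 9.25 CPM in SSC PDGF+ and 535 ± 51.8 CPM in SSC PDGF- (SD, n = 3 each), a difference within the spread of the controls.

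**Figure D3:**
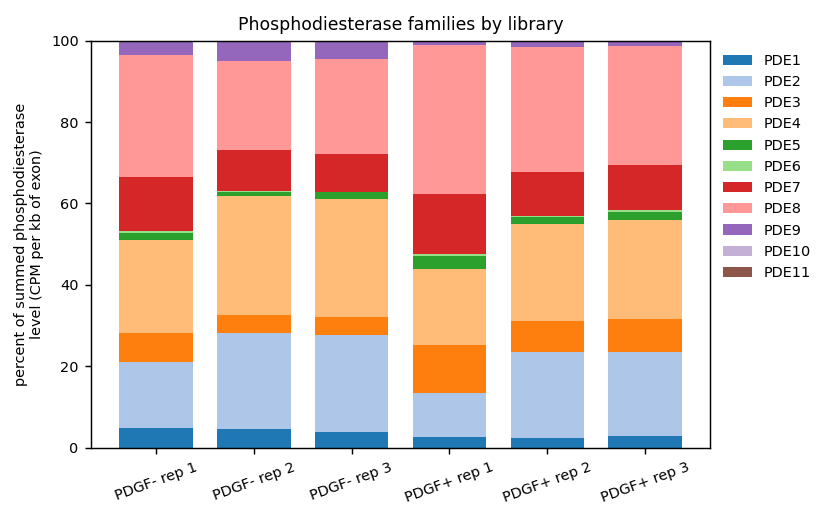
Share of the summed phosphodiesterase level (CPM per kb of exon) held by each PDE family, 1 bar per library from 0 to 100 percent. PDE8, PDE4 and PDE2 fill most of every bar, and PDE9 is the wider top segment in the SSC PDGF- libraries (3.32 to 4.66%, against 1.12 to 1.53% in SSC PDGF+).

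A further 7 phosphodiesterases passed in edgeR only with the block. PDE8A, the most abundant phosphodiesterase per kb, had 150, 125 and 122 CPM in SSC PDGF+ and 105, 92.2 and 94.1 CPM in SSC PDGF-. The groups did not overlap, and the log2 fold change was 0.45 (edgeR adjusted p = 0.064, 8e-07 with the block). DESeq2 called PDE8A without a block (adjusted p = 0.044). Unnamed loci on the opposite strand cover 270, 237 and 184 bp of the exons of PDE8A. PDE5A, the cGMP-specific target of sildenafil, PDE3B and PDE4C had log2 fold changes of 0.72, 0.74 and 0.86 (edgeR adjusted p = 0.097, 0.17 and 0.18, and 5.8e-04, 0.0041 and 0.030 with the block), each without overlap. PDE4A, the main PDE4 transcript, had 103, 140 and 143 CPM against 118, 187 and 174 CPM. The controls were higher within each batch but overlapped across batches (log2 fold change -0.31, edgeR adjusted p = 0.35, 1.1e-04 with the block). PDE2A and PDE1B had log2 fold changes of -0.23 and -0.52 (edgeR adjusted p = 0.64 and 0.21, 0.0015 and 0.041 with the block). PDE2A shared its count with ARAP1 in every library, as did PDE8B with AGGF1, so neither these genes nor the PDE2 family share can be assigned to one gene.

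PDE4B, PDE6C and PDE8B passed neither fit, with log2 fold changes of 0.28, 0.78 and -0.05 (edgeR adjusted p = 0.29, 0.52 and 0.94). PDE1C and the photoreceptor genes PDE6B and PDE6G had 0 counts in all 6 libraries, and PDE6A had 8 counts over SSC PDGF+ against 5 over SSC PDGF-. PDE10A and PDE11A, which degrade both cyclic nucleotides, did not pass the count filter of edgeR, with 3 counts each over SSC PDGF+ against 37 and 18 over SSC PDGF-. The ratio of SSC PDGF- to SSC PDGF+, corrected for depth, was 15.4 for PDE10A (95% interval 4.87 to 77.9) and 7.48 for PDE11A (95% interval 2.18 to 39.6), and these intervals cover counting error only. DESeq2, which tested both, called PDE10A lower (adjusted p = 0.0078) but not PDE11A (adjusted p = 0.11). On the opposite strand, 1533 bp of the exons of PDE11A overlap an unnamed locus.

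PDE12 shares the symbol but not the substrate, since it is a mitochondrial enzyme that degrades oligoadenylates and trims poly(A) tails. It had 17.1, 23.0 and 23.7 CPM in SSC PDGF+ and 9.12, 14.1 and 12.4 CPM in SSC PDGF-. The groups did not overlap (log2 fold change 0.84, SE 0.23, edgeR adjusted p = 0.037), but the call held only without SSC PDGF+ replicate 1 and was lost without any other library (adjusted p = 0.052 to 0.12).

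No PKA subunit gene passed the test in edgeR, DESeq2 or limma-voom, and 2 of the 5 had an unadjusted p under 0.05 in edgeR. Of all 11539 tested genes, 1815 higher and 2023 lower ones had such a p. PRKAR1A, the type I regulatory subunit, was the most abundant of the 45 genes, also per kb of exon, with 934, 730 and 704 CPM in SSC PDGF+ and 716, 537 and 510 CPM in SSC PDGF-. Each SSC PDGF+ library was above the control of the same number, but the control of batch 1 lay among the SSC PDGF+ libraries of batch 2. The log2 fold change was 0.43 (SE 0.18), 0.38 in batch 1 and 0.45 in batch 2, with an edgeR adjusted p of 0.13 that became 4.1e-09 with the block. PRKAR2B, a type II subunit held by anchoring proteins, had 35.2, 33.7 and 30.7 CPM against 30.6, 19.3 and 20.6 CPM (log2 fold change 0.50, edgeR adjusted p = 0.13, 6.1e-04 with the block). For PRKAR2A the log2 fold change was 0.30, with an edgeR adjusted p of 0.41.

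Of the catalytic subunits, PRKACA had 207, 216 and 232 CPM in SSC PDGF+ and 205, 230 and 205 CPM in SSC PDGF-, so that the groups overlapped. Its log2 fold change was 0.03 (SE 0.12, edgeR adjusted p = 0.88). PRKACB had 126, 78.9 and 77.8 CPM against 95.7, 68.4 and 65.0 CPM (log2 fold change 0.30, edgeR adjusted p = 0.42, 4.9e-04 with the block). PRKAR1A held 92.4% ± 1.31 of the regulatory level per kb in SSC PDGF+ and 92.3% ± 1.19 in SSC PDGF- (SD, n = 3 each), so the makeup of this pool differed by less than the spread between libraries. The regulatory level was 213% ± 31.5 of the catalytic level in SSC PDGF+ and 167% ± 31.1 in SSC PDGF- (SD, n = 3 each). In each batch this ratio was higher in SSC PDGF+, at 247% against 202% in batch 1 and at 206 and 185% against 143 and 155% in batch 2, while the groups overlapped across batches.

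The CREB-family factors and the other cyclic nucleotide sensors also held no gene past the threshold in edgeR. There 2 of the 6 tested genes had an unadjusted p under 0.05, beside 1815 higher and 2023 lower genes among all 11539 tested. For these 6 genes, limma-voom made no call and DESeq2 called 1. CREM, whose testis-specific form drives spermatid genes, had 91.6, 73.7 and 73.6 CPM in SSC PDGF+ and 97.2, 74.8 and 69.4 CPM in SSC PDGF-, with a log2 fold change of -0.01 (SE 0.18, edgeR adjusted p = 0.96). Its activating and repressing isoforms are not separated by counts per gene. CREB1 had 22.1, 17.9 and 22.5 CPM against 19.4, 14.1 and 16.0 CPM (log2 fold change 0.34, edgeR adjusted p = 0.25, 0.024 with the block). CREB5 had 1.82, 1.64 and 1.13 CPM against 0.493, 0.479 and 0 CPM. It had the largest log2 fold change of the 37 genes, 2.17, but from 63 counts against 11, with a standard error of 0.69 (edgeR adjusted p = 0.062, 0.0056 with the block).

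RAPGEF3 and RAPGEF4 encode EPAC1 and EPAC2, which activate the small G protein RAP1 when cAMP binds. RAPGEF4, the more abundant, had 45.7, 32.5 and 33.7 CPM in SSC PDGF+ and 46.2, 36.2 and 37.3 CPM in SSC PDGF- (log2 fold change -0.10, edgeR adjusted p = 0.76). RAPGEF3 had 3.92, 3.44 and 3.16 CPM against 4.19, 7.47 and 7.35 CPM. The groups did not overlap, but the log2 difference was -0.10 in batch 1 and -1.16 in batch 2 (overall -0.85, edgeR adjusted p = 0.082, 0.014 with the block). On the opposite strand, 297 bp of its exons overlap SLC48A1. PRKG1, the cGMP-dependent kinase of smooth muscle, had 11.5, 11.3 and 9.62 CPM against 8.05, 7.57 and 9.50 CPM (log2 fold change 0.37, edgeR adjusted p = 0.23, 0.080 with the block), and PRKG2 had 0 counts against 4.

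The lists of other genes of the pathway held 131 genes, of which 68 were tested and 32.4% passed, 15 higher and 7 lower in SSC PDGF+, against 18.3% of all tested genes. Among 9 tested Gs-coupled receptors, which activate the cyclases, 3 were higher and 2 lower. The PACAP receptor ADCYAP1R1 had 12.5, 12.7 and 9.99 CPM in SSC PDGF+ and 0.411, 0 and 0.49 CPM in the controls (480 counts against 10, log2 fold change 5.22, SE 0.51, edgeR adjusted p = 5.1e-04). CALCRL, a receptor for adrenomedullin and CGRP, and the prostaglandin E receptor PTGER2 had log2 fold changes of 1.39 and 0.94 (edgeR adjusted p = 0.0036 and 0.033). PTGER4, another Gs-coupled prostaglandin E receptor, moved the opposite way, with 2.16, 2.27 and 1.65 CPM against 7.06, 6.03 and 6.37 CPM (log2 fold change -1.67, edgeR adjusted p = 0.0037), as did GLP2R (log2 fold change -2.29, edgeR adjusted p = 0.013). Of 10 listed genes for G proteins acting on the cyclases and their helper proteins, 6 were in the count table, without a stimulatory subunit. The 5 tested were GNAI1, GNAI3, GNAZ, RIC8A and RIC8B, and the last 2 are not G proteins themselves. The inhibitory subunit GNAI3 was the only call, with a log2 fold change of 0.71 and an edgeR adjusted p of 0.026.

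Of 16 A-kinase anchoring proteins and PKA inhibitors, 2 were higher and 3 lower, together 31.2% against 18.3% of all tested genes. AKAP11 and AKAP9 had log2 fold changes of 1.39 and 0.79 (edgeR adjusted p = 0.0051 and 0.043). AKAP4, the anchoring protein of the sperm fibrous sheath, had 5.27, 6.57 and 4.66 CPM in SSC PDGF+ and 42.3, 57.0 and 51.6 CPM in SSC PDGF- (log2 fold change -3.19, edgeR adjusted p = 1.1e-04). It is also a member of the spermatid marker list, whose TNP1 and ODF1 had log2 fold changes of -3.30 and -3.40. The part of spermatid RNA in the AKAP4 values was not tested. AKAP14, another sperm tail protein, and AKAP8L had log2 fold changes of -2.38 and -0.63 (edgeR adjusted p = 0.026 and 0.021).

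Of the 14 tested CREB target genes, 6 were higher and 0 lower without a block in edgeR, DESeq2 and limma-voom, and 1 of the others had a negative fold change with an unadjusted p under 0.05. In edgeR 42.9% of the 14 passed, against 18.3% of all tested genes. Their median log2 fold change was 0.63, against 0.02 over all tested genes. The nuclear receptor NR4A2 had 22.3, 20.3 and 20.5 CPM in SSC PDGF+ and 3.78, 4.02 and 5.98 CPM in SSC PDGF- (log2 fold change 2.20, edgeR adjusted p = 6.3e-04). The secreted neuropeptide precursor VGF and the early response factor FOSB had log2 fold changes of 2.79 and 2.95 (edgeR adjusted p = 0.0021 and 0.0057), and NR4A3, BDNF and FOS ones of 1.80, 1.53 and 1.25. With the block, 10 of the list were higher and 2 lower, PPARGC1A (log2 fold change -0.81, adjusted p with the block 0.0056) and TGFB2 (-0.27, 0.029, and 0.051 with replicates 2 and 3 summed and batch as a term). These genes also respond to other pathways. The list was chosen with earlier results of these data known, and its counts and median depend on which genes it holds. Of its 22 genes, 19 were in the count table and 14 were tested, and the untested CGA had 2 counts against 15. It did not hold SIK1, PDE4D or CREM, which are described in other paragraphs (log2 fold changes -0.88, -1.57 and -0.01).

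Of 8 CREB coactivators and SIK kinases, the acetyltransferase EP300 had a log2 change of 0.57, an edgeR adjusted p of 0.034, and SIK1 and SIK3, kinases that hold CREB coactivators in the cytoplasm and are inhibited by PKA, were lower (log2 fold changes -0.88 and -0.70, edgeR adjusted p = 0.0093 and 0.0089). On the cGMP side, the natriuretic peptide receptor NPR1, a membrane guanylyl cyclase, had 23.0, 38.0 and 34.1 CPM against 13.1, 15.9 and 16.1 CPM (log2 fold change 1.08, edgeR adjusted p = 0.013). It was the only call among 6 tested genes of cGMP synthesis (16.7%, against 18.3% of all tested genes). VASP, a cytoskeletal substrate of PKA and PRKG1, was the only call among 10 tested other effectors and export genes (10%, log2 fold change 0.65, edgeR adjusted p = 0.0087).

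With 1 library left out, AKAP4, AKAP11, ADCYAP1R1, CALCRL, PTGER4, SIK1 and the 6 CREB targets kept their calls in each of the 6 cases. AKAP8L, AKAP14 and GNAI3 lost theirs without replicate 2 or 3 of either group (edgeR adjusted p = 0.065 to 0.097, 0.061 to 0.089 and 0.053 to 0.10). AKAP9 passed only without SSC PDGF+ replicate 3 or SSC PDGF- replicate 1 (otherwise 0.084 to 0.15), PTGER2 only without SSC PDGF- replicate 1 (otherwise 0.069 to 0.11) and EP300 only without SSC PDGF+ replicate 1 (otherwise 0.059 to 0.12). Leaving out SSC PDGF+ replicate 2 gave 0.056 for NPR1 and 0.051 for VASP, and leaving out SSC PDGF+ replicate 3 gave 0.051 for NPR1, 0.060 for GLP2R and 0.053 for SIK3.

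**Figure D4:**
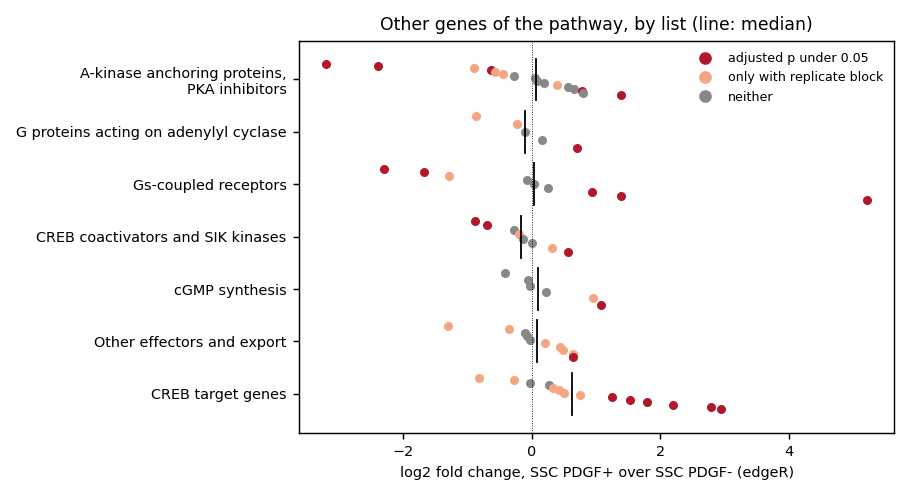
Log2 fold change of SSC PDGF+ over SSC PDGF- for each tested gene of the other pathway lists, with a line at each list's median, colored by whether the gene passed an adjusted p of 0.05 in edgeR, only with the replicate block, or in neither. The list medians lie between -0.17 and 0.11 except for the CREB target genes at 0.63, and ADCYAP1R1 at 5.22 is the rightmost point.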

How the data were processed

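RNA of 6 mRNA-enriched libraries was sequenced, and the authors deposited expected counts per gene without normalization (34 values in 13 genes, none described above, were not whole). The submitters' processing notes name fastp, HISAT2 2.1.0, SAMtools and featureCounts 2.0.1, and the builds Mmul_10 and Mmul_8.0.1, without saying which build or strand setting made the counts. Counts were rounded, filtered with filterByExpr, scaled by TMM and compared in edgeR 4.0.16 (R 4.3.3) with the quasi-likelihood test and Benjamini-Hochberg adjustment over all tested genes. The SE of a log2 fold change is its size over the root of its F statistic. Within-batch differences add 0.5 counts. Same-numbered libraries have the same batch label and deviated together across genes (r = 0.73, 0.35 and 0.37), so the number was used as a block in an alternative fit. Replicates 2 and 3 also correlated across numbers (r = 0.36 and 0.39).

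Levels per kb and promoters used RefSeq models of Mmul_10, which matched 17021 of 17795 symbols. Ratios of low genes carry exact 95% binomial intervals, which cover counting error only. Genes named with values passed in either fit or were among the 2 most abundant of their role, ADCY2, PDE4B, PDE6C, PDE8B and PRKAR2A were added to complete their families, and from other lists up to 3 called genes in each direction were named, with NR4A3, BDNF, FOS, PPARGC1A, TGFB2, ID4 and others of the marker list beyond that. The genes and lists were chosen with earlier results of these data known. Alternatives were DESeq2 1.42.0, limma-voom (limma 3.58.1), other normalizations, filters and thresholds, batch terms, and each library left out. Of these steps, only the edgeR fit without a block was first tested on simulated counts. Figures were drawn with Python 3.11.15 and matplotlib 3.10.9.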

Additional observations from a re-analysis of the deposited data

How the results depend on the processing

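Without a block, 4 genes of the set were higher and 6 lower. The replicate block, which pairs libraries of one batch, gave 15 and 13, batch as a term 15 and 12, and batch 2 alone 13 and 10. With replicates 2 and 3 summed, all 10 calls were lost: 0 genes were higher (6 at an unadjusted p under 0.05) and 1 lower, PDE10A (adjusted p = 0.042), which then entered the test. Summed with batch as a term, a choice made after seeing the data, 15 were higher and 13 lower. DESeq2 gave 7 and 7, an adjusted p of 0.01 gave 0 and 2, and leaving out 1 library gave 0 to 6 higher and 3 to 7 lower. Library totals without normalization factors gave 4 and 4.

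The other pathway lists (15 higher, 7 lower) gave 26 and 18 with the replicate block and with batch as a term, 27 and 14 in batch 2 alone, 7 and 3 summed, 26 and 16 summed with batch, 10 and 4 at 0.01, and 9 to 17 and 3 to 10 with 1 library left out. The marker lists (2 higher, 16 lower), for which the settings were added after seeing the data, gave 12 and 25 with the replicate block and with batch as a term, 11 and 22 in batch 2 alone, 1 and 11 summed, 12 and 27 summed with batch, 1 and 14 with at least 10 counts in every library, 3 and 21 by DESeq2, 1 and 11 at 0.01, and 1 to 3 and 12 to 19 with 1 library left out.

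The direction of the log2 fold change reversed for 6 of the tested genes of the set, none of which passed without or with the block except PDE2A with it: CREM (-0.01) without a filter (0.01), in DESeq2 (0.00), in batch 2 alone (0.01) and with 1 library left out (-0.12 to 0.13), PRKACA (0.03) with at least 10 counts (0.00) and with 1 library left out (-0.01 to 0.09), RAPGEF4 (-0.10) with 1 library left out (-0.26 to 0.01), ADCY2 (0.14) with 1 library left out (-0.12 to 0.30), PDE8B (-0.05) summed (0.10), summed with batch (0.09) and with 1 library left out (-0.29 to 0.21), and PDE2A (-0.23) with 1 library left out (-0.46 to 0.04, above 0 without SSC PDGF+ replicate 1). The causes were not tested.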
